A study of Mus musculus with 12 samples.

Results

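Liver transcripts were set against those of heart, lung and thymus. The liver arrays were chosen by their titles and numbered 3 of the 12 arrays of the series, with 3 each for heart, lung and thymus. All mice were Sv/129 and 2 months old, and each array held RNA pooled from 4 mice. In each tissue there was 1 array of p53-/- mice, which lack the tumour suppressor p53, 1 of p66-/- mice, which lack the p66 isoform of Shc1, and 1 of WT mice. The 3 genotypes served as the repeats of a tissue. The p-values therefore measure the spread between arrays of different genotype, and the labels do not say whether pools of 1 genotype share mice across tissues.

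The liver makes most proteins of blood plasma, stores and releases glucose, turns ammonia into urea, makes bile acids from cholesterol and modifies foreign compounds for excretion. Nearly all of this work is done by hepatocytes, the main cell of the organ. Kupffer cells (resident macrophages), sinusoidal endothelium, stellate cells and cholangiocytes (bile duct cells) make up the rest. Hepatocyte genes are held on by a set of transcription factors that includes the HNF1, HNF4, FOXA and C/EBP families.

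The values are log2 signals of probe sets, so a difference of 1 is 2-fold. Each gene is given by 1 probe set, and signals of different genes are not compared. The liver gap of a gene is the liver mean minus the highest of the heart, lung and thymus means, and the reverse gap is the liver mean minus the lowest of them. A gene is called higher in liver where its liver mean lay 2-fold or more above each of the other tissue means with a limma adjusted p under 0.05 in each of the 3 comparisons, and lower by the same rule in the other direction. In such bulk samples fewer cells of a type and less RNA per cell cannot be told apart.

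Before the comparisons, the arrays that stood apart are named. The liver arrays were close to each other, with correlations of 0.989 to 0.993 over probe sets, which are not independent replicates. Among the arrays of other tissues, the WT lung array was nearest to every liver array (r = 0.855 to 0.858). In lung, the p53-/- array was less like the others (lowest r = 0.964), and in thymus the WT array was (r = 0.924 to 0.928) and carried salivary gland markers at a mean signal of 14.38, against 4.69 to 8.83 on the other 11 arrays. The 18S ribosomal RNA control was low (5.52 to 6.61) on 6 arrays, namely all 3 of liver, 2 of lung and 1 of thymus, and high (9.04 to 10.86) on the other 6, among them all 3 of heart, so that this feature and the difference between liver and heart cannot be told apart. Counts over the 6 arrays of low 18S signal are given beside the calls. The Shc1 probe set read 9.31, 9.14 and 9.01 on the p53-/-, p66-/- and WT liver arrays. Its position relative to the deleted p66 part was not known here, so it does not check the label.

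The 4 hepatocyte markers named for the comparison were all far above the other tissues on the liver arrays. Alb, the main plasma protein, read 14.71, 14.74 and 14.79 on the p53-/-, p66-/- and WT liver arrays. On the other arrays Alb ran between 7.24 in p53-/- thymus and 13.13 in WT lung, so no array of another tissue reached the liver. The liver gap of Alb was 3.34, that is 10.1-fold, and was set by lung (adjusted p = 0.014 by limma, the largest of the 3 comparisons). Ttr, the thyroxine and retinol transporter transthyretin, read 14.58, 14.49 and 14.40 in p53-/-, p66-/- and WT liver, with a gap of 3.75 against lung (adjusted p = 0.024). Without any 1 of the 3 liver arrays, or without the p53-/- lung array, its call was lost (adjusted p = 0.059 to 0.08), while its gap stayed between 2.28 and 3.79. Apoa1, the main protein of high density lipoprotein, read 14.73, 14.60 and 14.68 in p53-/-, p66-/- and WT liver and 6.77 to 11.18 elsewhere (gap 4.87, 29.2-fold, adjusted p = 4e-05). Fga, a chain of fibrinogen, read 13.71, 13.86 and 13.99 in p53-/-, p66-/- and WT liver and 5.48 to 11.09 elsewhere (gap 5.13, 35.0-fold, adjusted p = 0.0016).

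**Figure D1:**
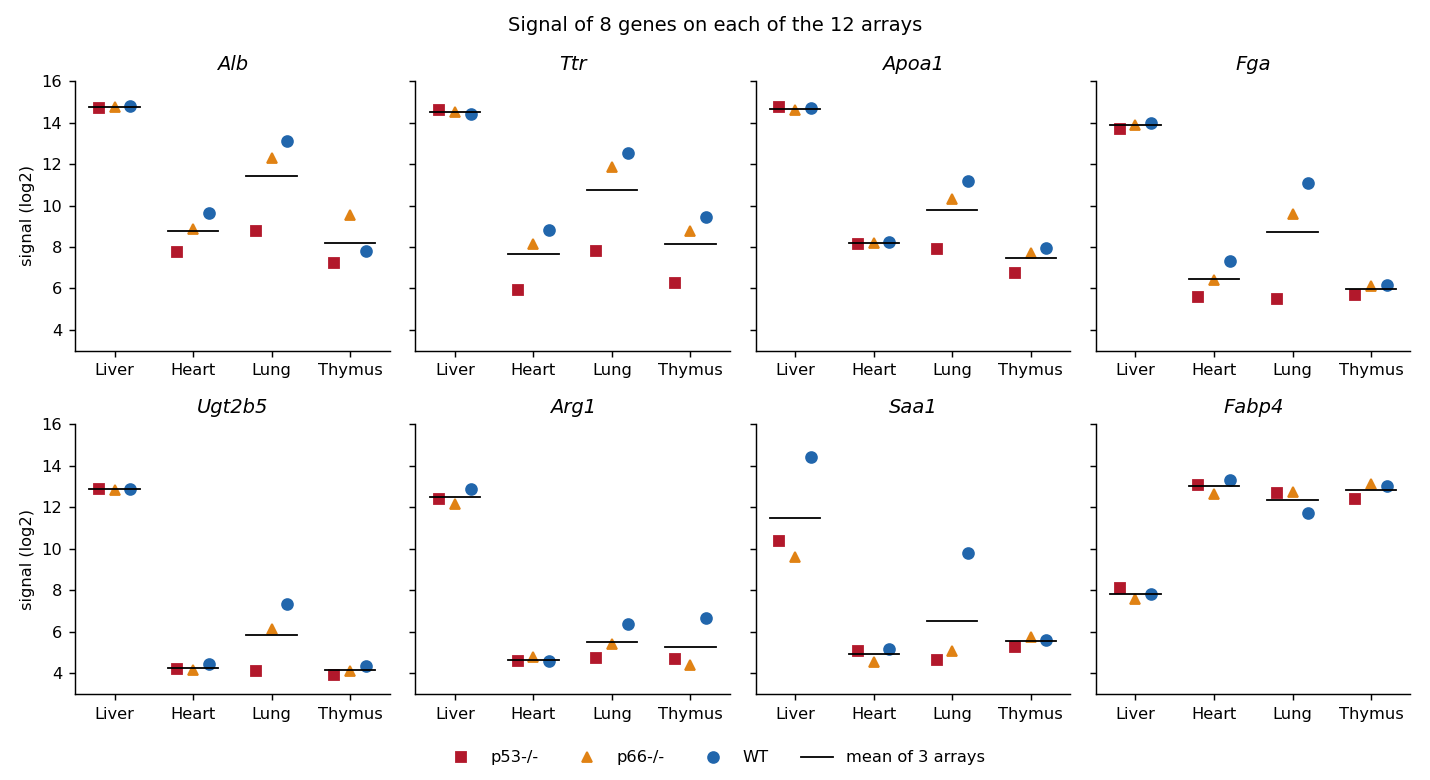
Log2 signal of 8 genes on each of the 12 arrays, by tissue along the x axis, with 1 point per genotype (square p53-/-, triangle p66-/-, circle WT) and a line at the mean of 3 arrays. In the upper row the liver points of Alb, Ttr, Apoa1 and Fga lie together, while the WT and p66-/- lung points stand above the p53-/- lung point. In the lower row Saa1 spreads in liver and Fabp4 is low there.

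The sequence in front of such genes is shown here for 3 of the markers and for Elovl2, one of the genes with the largest gaps, since promoters differed in composition along the liver gap. Each stretch runs from 250 bases before to 50 bases after the start of transcription, taken from RefSeq, build GRCm38.p6. Capitals mark letters that match GTTAATNAT, the core of the HNF1 site, or TGTTTGC, a FOXA site, on either strand.
Alb, chr5:90460620-90460919, plus strand: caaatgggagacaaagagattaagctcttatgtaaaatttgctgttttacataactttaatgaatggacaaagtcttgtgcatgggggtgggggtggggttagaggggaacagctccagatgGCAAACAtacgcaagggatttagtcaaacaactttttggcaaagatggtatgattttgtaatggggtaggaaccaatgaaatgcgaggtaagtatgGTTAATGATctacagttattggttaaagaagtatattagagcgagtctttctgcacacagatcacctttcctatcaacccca
Fga, chr3:83025903-83026202, plus strand: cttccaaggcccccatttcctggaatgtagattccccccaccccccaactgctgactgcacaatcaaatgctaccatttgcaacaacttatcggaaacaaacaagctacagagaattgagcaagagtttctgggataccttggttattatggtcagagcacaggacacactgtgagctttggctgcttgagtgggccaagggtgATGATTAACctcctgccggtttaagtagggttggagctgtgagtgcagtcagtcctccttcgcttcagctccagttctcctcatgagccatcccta
Apoa1, chr9:46228380-46228679, plus strand: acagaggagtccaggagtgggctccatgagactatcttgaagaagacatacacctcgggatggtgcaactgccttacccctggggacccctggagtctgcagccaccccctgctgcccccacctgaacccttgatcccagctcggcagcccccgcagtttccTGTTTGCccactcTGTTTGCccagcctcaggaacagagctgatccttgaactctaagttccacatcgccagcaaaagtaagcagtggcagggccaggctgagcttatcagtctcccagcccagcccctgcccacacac
Elovl2, chr13:41220354-41220653, minus strand: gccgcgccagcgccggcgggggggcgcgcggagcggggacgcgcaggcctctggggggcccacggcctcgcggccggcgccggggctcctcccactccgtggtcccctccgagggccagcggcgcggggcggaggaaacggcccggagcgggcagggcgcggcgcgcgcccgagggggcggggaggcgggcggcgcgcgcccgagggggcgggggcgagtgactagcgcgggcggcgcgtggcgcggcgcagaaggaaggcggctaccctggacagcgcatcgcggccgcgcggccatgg
In Alb the HNF1 letters (GTTAATGAT) begin 32 bases before the start, and in Fga they lie on the opposite strand (GTTAATCAT), 46 to 38 bases before it. Apoa1 holds TGTTTGC at 2 places, beginning 88 and 75 bases before the start. Elovl2 holds none of the motifs searched.

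Of 18193 genes, 979 were called higher in liver than in each other tissue, which is 5.38% of the genes tested, and 357, or 1.96%, were called lower. The gaps of the higher genes had a median of 2.09 and reached 7.05, and 519 of them were past 4-fold, 218 past 16-fold and 40 past 64-fold. The lower genes had a median reverse gap of -1.46, with 79 past 4-fold and 4 past 16-fold. Liver thus held its largest departures on the higher side. Over all genes the median liver gap was -0.36 and the median reverse gap 0.19, since the first is the smallest and the second the largest of 3 differences. The 3 genes nearest to the 2-fold threshold from inside were Nek6, Nsun3 and Clec1b, with gaps of 1.004, 1.009 and 1.01, and those nearest from outside were Cyp2d13, Copz1 and Glt28d2, with 0.999, 0.998 and 0.995. Among the 6 arrays of low 18S signal alone, where heart has none, liver was higher than lung and thymus for 1133 genes and lower for 1124, against 1175 and 781 over all arrays of these tissues. Thymus is 1 array there and is assumed to vary like the other tissues.

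Taken 1 genotype at a time, with no test, liver was 2-fold or more above each other tissue for 1021 genes in p53-/- mice, 926 in p66-/- mice and 981 in WT mice. All 3 genotypes shared 791 of these genes, of which 788 were among the genes called higher. It was 2-fold or more below each other tissue for 332, 352 and 467 genes in p53-/-, p66-/- and WT mice, with 190 in all 3. Lung was the tissue nearest to liver for 489 of the 979 higher genes, heart for 325 and thymus for 165. For the lower genes, the nearest tissue was thymus for 156, heart for 152 and lung for 49.

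**Figure D2:**
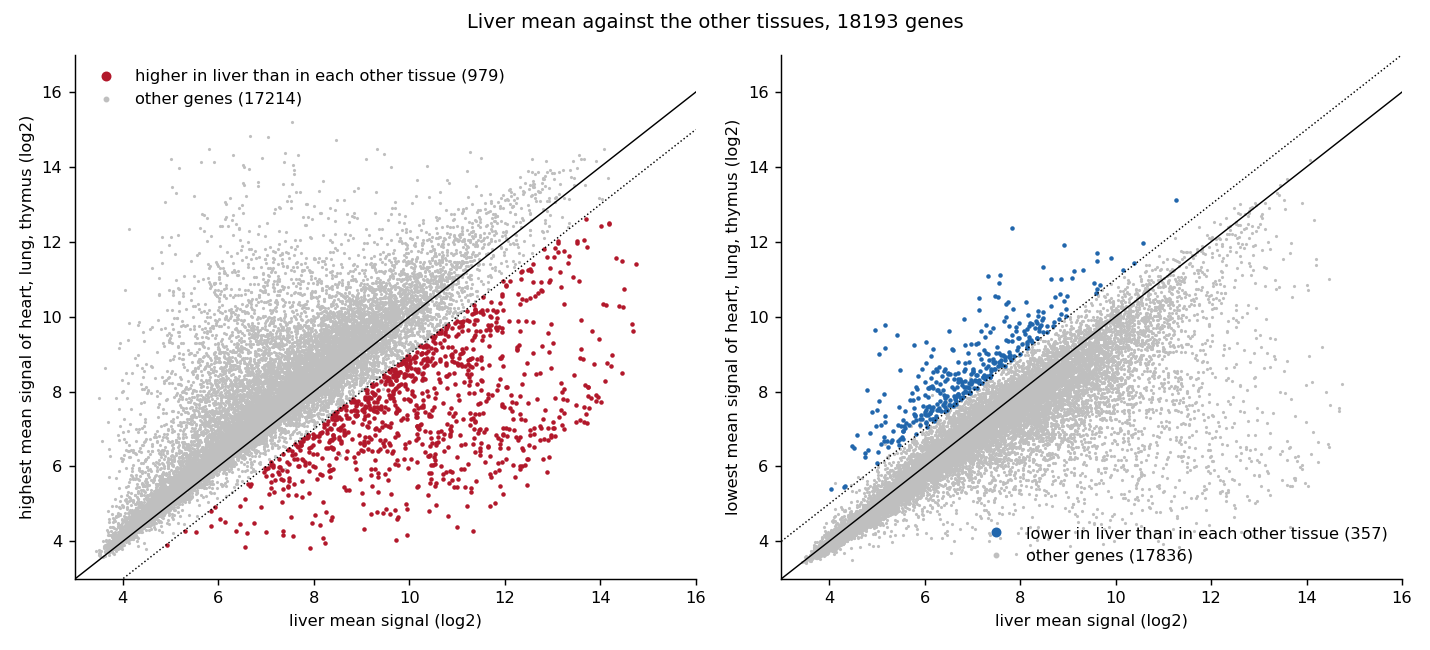
Each point is a gene, with its liver mean log2 signal on the x axis and, on the y axis, the highest (left) or the lowest (right) of the heart, lung and thymus means. The solid line marks equal signal and the dotted line 2-fold; the 979 genes called higher spread down to gaps of 7.05, whereas the 357 called lower stay close to the line.

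The gene with the largest gap was Bhmt2, an S-methylmethionine-homocysteine methyltransferase that makes methionine. It read 11.10, 11.33 and 11.57 in p53-/-, p66-/- and WT liver and 3.76 to 4.83 on the other 9 arrays, a gap of 7.05 or 133-fold (adjusted p = 3.3e-10). Ugt2b5, which couples glucuronic acid to steroids and drugs, had a gap of 7.03, with 12.89, 12.85 and 12.90 in p53-/-, p66-/- and WT liver and 3.92 to 7.32 elsewhere (adjusted p = 6.6e-07). Arg1, the arginase that releases urea, read 12.39, 12.15 and 12.86 in p53-/-, p66-/- and WT liver and 4.38 to 6.65 elsewhere (gap 6.97, 125-fold, adjusted p = 3.9e-07). These genes were picked by their gap, so their lack of overlap between liver and the other arrays follows from that choice. The lowest signals on the arrays were 3.26 to 3.42, so many readings outside liver lay near that floor, and these folds and the order of the leading genes are limited by it. Elovl2, an elongase of long polyunsaturated fatty acids, and Gulo, the last enzyme of vitamin C synthesis, followed with gaps of 6.77 and 6.74. The P450 enzymes Cyp2j5 (6.69) and Cyp2d10 (6.67), the lipid droplet protein Hsd17b13 (6.62), Ugt2b1 (6.58) and Apof, an apolipoprotein (6.57), came next. Ces2a, a carboxylesterase, Mug1, a protease inhibitor of plasma, Otc of the urea cycle, Hsd3b5, a steroid reductase of male mouse liver, and Aadac, a deacetylase, had gaps of 6.38 to 6.49. With all probe sets of a gene averaged, the gaps of Hsd17b13, Otc, and Cyp2j5 were 3.36, 4.78 and 5.93. That of Bhmt2 was then 6.67, below the 7.03 of Ugt2b5, so its first rank depends on the probe set. In 14 of the first 15 genes lung was the nearest tissue, Aadac being the exception with heart.

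Secreted proteins of plasma were among the groups with the highest median gaps. Of 23 measured genes of coagulation and fibrinolysis, 20 were higher in liver and 0 lower, with a median gap of 5.13. Over all genes 5.38% were higher and 1.96% lower, to be set beside this and each later list count. Fgg, another fibrinogen chain, read 13.86, 14.05 and 14.15 in p53-/-, p66-/- and WT liver and 5.10 to 9.40 elsewhere (gap 6.29, adjusted p = 9.4e-06). F13b (6.26), which carries factor XIII, Serpinc1 (6.23), the thrombin inhibitor antithrombin, and Plg (6.20), the precursor of plasmin, had gaps of the same size. F3, tissue factor, which starts clotting on cells outside the blood, was not called (liver mean 5.33, lung mean 8.12), and Pros1, the anticoagulant protein S, was not called either, with a gap of -0.52. Of 18 plasma carriers, 16 were higher, with a median gap of 4.79, among them Ambp (6.31), the precursor of alpha-1-microglobulin, Ahsg (5.81), Orm1 (5.66) and Hrg (5.51). The 2 carriers not called were Hp, the haemoglobin binder haptoglobin, and Afp, the albumin of fetal liver. Hp read 13.79, 13.75 and 14.40 in p53-/-, p66-/- and WT liver, but the lung mean was 13.17 (gap 0.81, adjusted p = 0.31).

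Apolipoproteins and lipoprotein enzymes were higher in 17 of 19 cases (median gap 4.97). Besides Apof, the largest gaps were those of Apoa4 (6.20), Apob (6.08), the protein that carries very low density lipoprotein out of the liver, and Apoc3 (5.96), which slows its clearance. Lpl, the lipase that takes fatty acids from these particles in muscle and fat, was lower in liver (10.01, 10.28 and 10.85 in p53-/-, p66-/- and WT liver, against means of 14.03 in heart, 11.99 in lung and 11.43 in thymus, reverse gap -1.05, adjusted p = 0.015). Of 20 serpins and other protease inhibitors of plasma, 17 were higher (median gap 4.38), led by Mug1 (6.47) and Ambp, with A2m (-0.10) and Spink1 (-0.42) not called. Of 20 complement genes, 15 were higher (median gap 3.22). These were members of the terminal attack complex such as C9 (6.15), C8g (6.03) and C8a (5.85), the regulator C4bp (6.0) and the lectins Mbl1 and Mbl2. The genes of C1q, which macrophages make, were not called, and C1qa read 8.89, 8.83 and 8.84 in p53-/-, p66-/- and WT liver, against means of 9.78 in heart, 8.87 in lung and 10.42 in thymus.

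Acute phase genes, whose products rise in plasma during inflammation, were higher in 13 of 18 cases (median gap 3.21), with Itih3, of the inter-alpha inhibitors, at 6.11. Among the genes called higher, the 2 that spread most within liver were on this list. Saa1, serum amyloid A, read 10.38 in p53-/- and 9.62 in p66-/- liver, against 14.41 in WT liver, and 4.52 to 9.81 elsewhere (gap 4.97, adjusted p = 0.0099). Saa2 read 8.76 and 7.70 in p53-/- and p66-/- liver, against 12.77 in WT liver (gap 3.58, adjusted p = 0.016). The Saa probe sets can bind transcripts of both genes. The highest reading of Saa1 outside liver, 9.81, was on the WT lung array, with 4.62 and 5.07 on the p53-/- and p66-/- lung arrays. Crp, C-reactive protein, and Hamp, the iron hormone hepcidin, were even across liver arrays (Crp 12.37, 12.42 and 12.80; Hamp 13.64, 13.58 and 13.55 in p53-/-, p66-/- and WT liver), with gaps of 5.68 and 4.44. Lcn2, which binds bacterial iron carriers, Saa3 and the metallothioneins Mt1 and Mt2 were not called (gaps of -1.12, 1.15, -1.15 and 0.49). Lcn2 read 6.91 and 6.55 in p53-/- and p66-/- liver, against 12.53 in WT liver, the widest range over the liver arrays (5.98) of all genes measured.

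Across all 979 higher genes the 3 liver arrays lay close together, with a median range of 0.33, and 728 genes had a range of 0.5 or less. A range of 1 or more was found for 32. After Saa2 (5.07) and Saa1 (4.78), the largest ranges were those of Cyp4a14, a fatty acid hydroxylase (7.79 and 10.21 in p53-/- and p66-/- liver, against 11.89 in WT liver), Orm2, an acute phase carrier (5.32 and 5.63, against 8.12 in WT liver), Nnmt, which methylates nicotinamide (7.52 and 7.85, against 10.26 in WT liver), and Ugt2b37 (5.85 and 7.85, against 8.34 in WT liver). In all 6 the WT liver array was highest, but they were picked by their range and no share over all genes was counted. Saa1, Saa2 and Orm2 are acute phase genes and may not vary independently. With 1 array per genotype these differences have no replicate check. Igf1, the growth factor that liver releases under growth hormone, was among the evenest, with 12.91, 12.91 and 12.92 in p53-/-, p66-/- and WT liver (gap 3.35).

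In metabolism, 32 of 36 genes of the urea cycle and amino acid breakdown were higher in liver (median gap 4.52). Otc read 11.85, 11.87 and 11.98 in p53-/-, p66-/- and WT liver and 4.79 to 5.98 elsewhere, a gap of 6.42. Cps1, which starts the urea cycle, had a gap of 5.84, Bhmt, the betaine-dependent relative of Bhmt2, 6.35 and Tdo2, which opens the ring of tryptophan, 5.97. The probe set of Ass1 was dim on every array (4.65, 4.46 and 4.89 in p53-/-, p66-/- and WT liver, 4.14 to 4.63 elsewhere) and gave no call. Of 17 genes of gluconeogenesis and glycogen, 14 were higher (median gap 3.04), with Slc2a2, the glucose transporter of hepatocytes, at 5.88, Fbp1 at 5.17, Gys2 at 4.71 and G6pc, which frees glucose from its phosphate, at 4.05. Gyg, the protein primer of glycogen, was lower (reverse gap -1.43, adjusted p = 0.00018). Pck1, the entry enzyme of gluconeogenesis, read 12.15, 11.81 and 12.92 in p53-/-, p66-/- and WT liver, with thymus the nearest tissue (mean 9.25, gap 3.04).

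Several enzymes exist as a liver form and a form used elsewhere, and here such pairs often split. Of 15 measured liver forms 14 were higher in liver, the exception being Pfkl. Of 19 other forms 6 were lower, 2 were higher and 11 were not called. Pyruvate kinase split in opposite directions, with Pklr at 9.96, 10.21 and 9.49 in p53-/-, p66-/- and WT liver (gap 1.5, adjusted p = 0.0009) and Pkm at 7.12, 7.09 and 7.22 there, against 10.22 to 11.93 elsewhere (reverse gap -3.37, adjusted p = 1.8e-07). So did the fatty acid binding proteins. Fabp1 was higher (gap 4.22), whereas Fabp3 and Fabp4, the forms of muscle and of fat cells and macrophages, were lower (reverse gaps -1.83 and -4.53). Hk1 (-2.17), Hk2 (-1.23) and Aldoa (-1.34), which drive glycolysis outside liver, were lower too. The 2 other forms that were higher were Hmgcs1, of sterol synthesis (gap 1.32), and Prodh (2.59), both of which are also used in hepatocytes.

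**Figure D3:**
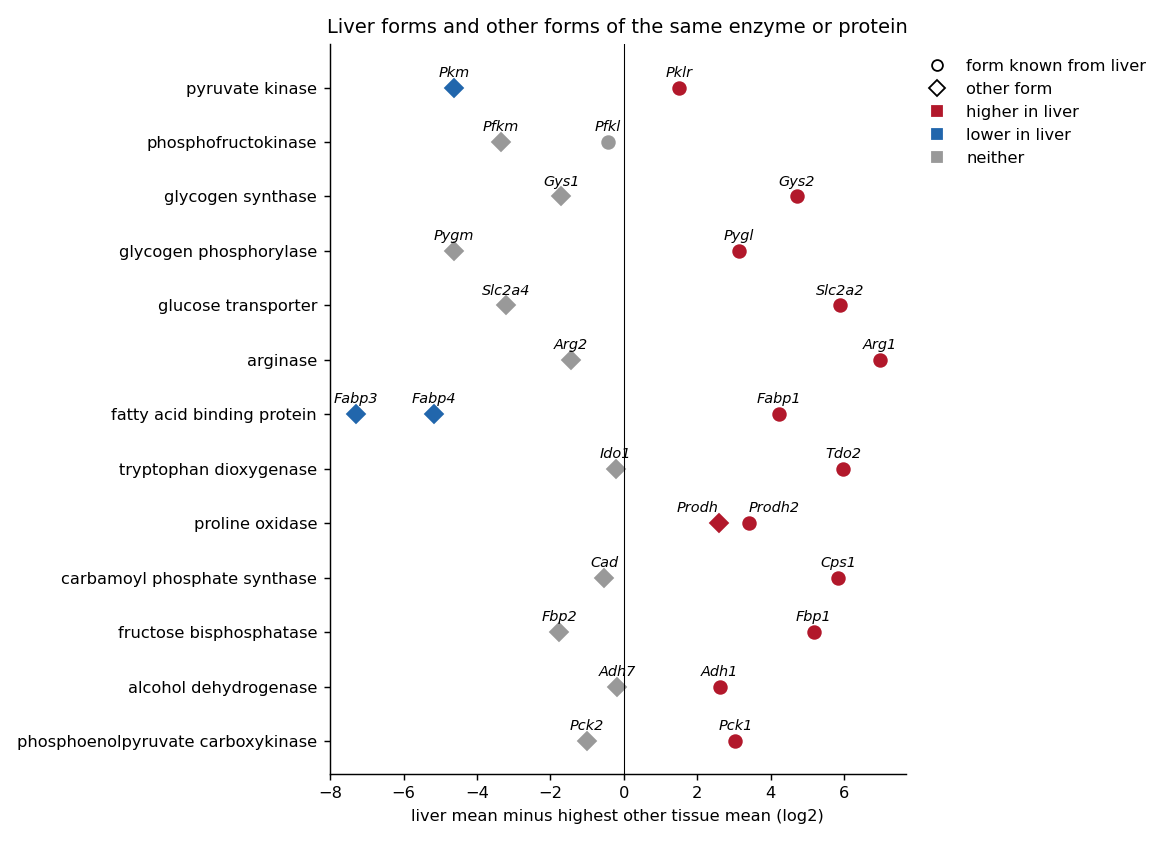
Liver gap (liver mean minus the highest other tissue mean, log2) of liver forms (circles) and other forms (diamonds), 1 row per enzyme or protein for which both were measured. Red is called higher in liver than in each other tissue, blue lower and grey neither; all circles but Pfkl are red, and Pkm, Fabp3 and Fabp4 are blue.

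Bile acid genes were higher in 22 of 26 cases (median gap 2.69). Cyp7b1, of the oxysterol branch, read 12.93, 12.93 and 13.16 in p53-/-, p66-/- and WT liver and 5.55 to 7.75 elsewhere (gap 5.97). The uptake transporter Slc10a1 and the export pump Abcb11 had gaps of 5.94 and 5.93, and Cyp8b1, which sets the share of cholic acid, one of 5.11. Cyp7a1, the rate-limiting enzyme of bile acid synthesis, read 9.15, 8.85 and 9.57 in p53-/-, p66-/- and WT liver and had a gap of 1.35 (adjusted p = 0.0018). Cyp39a1 (-0.10) and Fgfr4 (-0.02), the receptor for the gut signal FGF15, were not called. The probe set read for Fgfr4, 1 of 5, was flat, at 8.50 to 8.52 in liver and 8.27 to 8.77 elsewhere. It may therefore not report the level of this gene.

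Of 38 cytochrome P450 genes, 27 were higher and 1 lower (median gap 3.28). Besides Cyp2j5 and Cyp2d10, Cyp2c23 (6.30) and Cyp2c50 (6.14) led. The one lower was Cyp1b1 (6.86, 6.93 and 6.62 in p53-/-, p66-/- and WT liver, against 7.61 to 8.46 elsewhere, reverse gap -1.05). Cyp4b1, a P450 known from lung, stood at a mean of 8.44 in liver and 12.55 in lung. Cyp2f2, which activates naphthalene in club cells of lung and is also made in periportal hepatocytes, was high in both, at 13.65 in liver and 14.21 in lung. Of 43 conjugation genes 30 were higher (median gap 1.73), with 6 Ugt2 genes past a gap of 5. Members of the Ugt2b, Cyp2c, Cyp2d, Mup and Serpina1 families are near copies of each other, so their probe sets may bind related transcripts and single members are uncertain.

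Sterol and fatty acid synthesis had 18 of 29 genes higher (median gap 1.31), and after Elovl2 the largest gaps were those of Cyp51 (2.68), Fdps (2.42) and Idi1 (2.25), of sterol synthesis, and Insig2 (2.67), a brake on it. Fasn and Scd1, which make and desaturate fatty acids, were not called. Fasn read 10.60, 10.43 and 10.58 in p53-/-, p66-/- and WT liver, against means of 9.11 in heart, 11.22 in lung and 10.97 in thymus. Uox (6.0), urate oxidase, and Hao1 (5.96), glycolate oxidase, led the oxidation list, in which 17 of 29 were higher. Hadhb, Acadl and Ech1, enzymes of fatty acid oxidation, were not called, with heart above liver (Hadhb means 11.39 in liver and 13.48 in heart).

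Of 25 hepatic transcription factors 14 were higher and 0 lower (median gap 1.21). Foxa3 read 9.87, 9.36 and 9.90 in p53-/-, p66-/- and WT liver and 4.48 to 5.06 elsewhere (gap 4.88, adjusted p = 2.3e-09), and Hnf4a 11.40, 11.35 and 11.72 there and 6.94 to 7.87 elsewhere (gap 3.79). Nr1h4, the bile acid receptor FXR, and Onecut2 followed at 3.72 and 3.48. Foxa1 and Foxa2, the other FOXA genes, were not called, with lung the nearest tissue (gaps -0.84 and -0.54), and Gata4 and Gata6, which heart shares, had gaps of -1.53 and -2.04. Cebpa, of the C/EBP family, was higher by 1.14, with lung at a mean of 11.21.

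Of 23 genes of iron, copper and secreted hormones 17 were higher, led by Igfbp1 (5.07), Fetub (4.64), Hamp and Agt (4.33), the source of angiotensin. Igfbp1 read 9.74, 10.94 and 10.95 in p53-/-, p66-/- and WT liver. Of 17 sex-biased genes 10 were higher. Hsd3b5 (6.39), C9, Cyp7b1, Cyp4a12a (5.75), Mup3 (5.57) and Elovl3 (5.55), all known from male mouse liver, were on the higher side, while the female-biased Cyp2b9 (-0.18), Sult3a1 (-0.03) and Cux2 (-0.18) were not called. Hepatocytes differ along the lobule, and genes of both ends were higher, with 14 of 18 periportal genes (Arg1, Hsd17b13, Apof, Cps1) and 12 of 20 pericentral genes (Gulo, Cyp2c50, Cyp3a11, Cyp1a2). Glul, which only the cells around the central vein express, read 11.98, 12.02 and 12.13 in p53-/-, p66-/- and WT liver but had a gap of 0.69, with lung at a mean of 11.35. None of 11 genes of fetal liver was called by limma (0 also with an unadjusted p under 0.05 at the same 2-fold threshold). Plagl1 was lower in each comparison (largest adjusted p = 0.0017 by limma) but missed 2-fold against thymus (-0.89). Afp, read from 1 of 5 probe sets, stood at 6.80, 6.64 and 6.47 in p53-/-, p66-/- and WT liver. Its means were 7.12 in heart, 6.31 in lung and 6.43 in thymus. The probe sets of Igf2bp3 (9.43 to 10.28 on all arrays) and Igf2bp1 (8.89 to 9.85) were nearly flat, and Lin28b (3.42 to 3.77) lay near the floor. Such probe sets may not report the level of their genes.

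**Figure D4:**
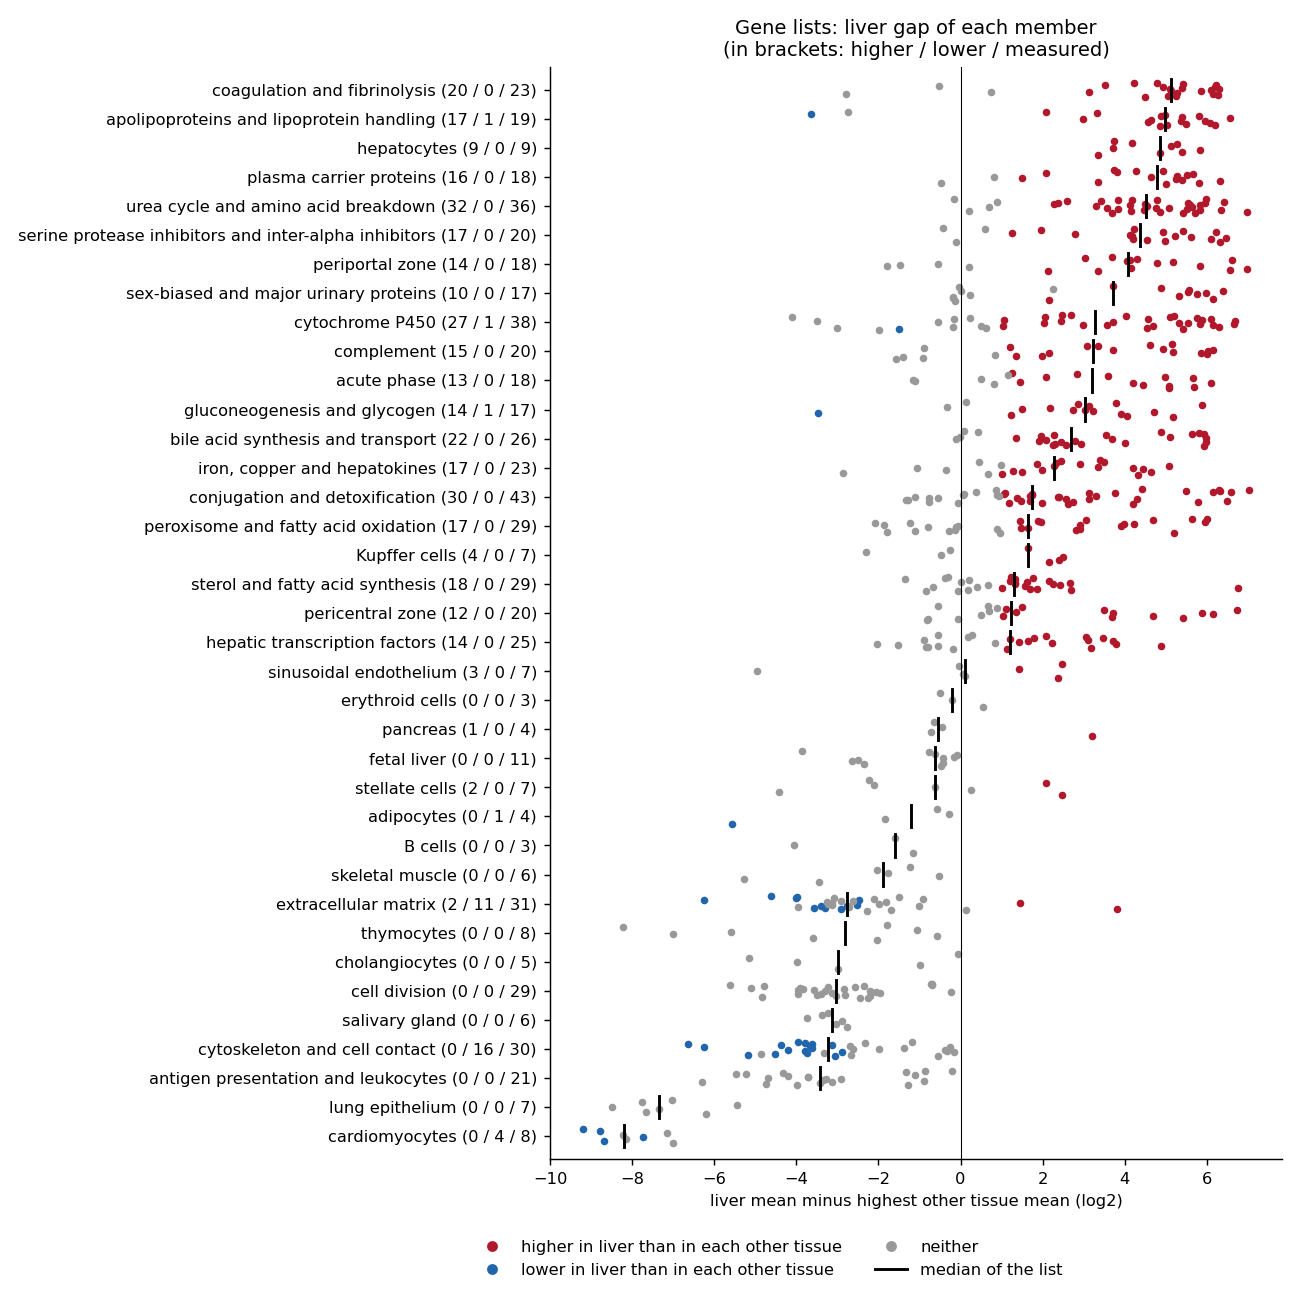
Liver gap in log2 of each measured member of 37 gene lists (points) and the list median (bar), sorted by median, with the number higher, lower and measured in brackets. Lists of plasma proteins and liver metabolism lie to the right with median gaps up to 5.13, and lists of muscle, lung, cytoskeleton and leukocytes to the left.

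Cells other than hepatocytes were seen through fewer genes. Of 7 Kupffer cell markers 4 were higher, with Clec4f, their lectin, at 8.96, 9.31 and 9.12 in p53-/-, p66-/- and WT liver and 6.0 to 6.8 elsewhere (gap 2.49), and Cd5l at a gap of 2.39. Of the 3 not called, Marco (-2.3, against lung) and Folr2 (-0.47, against heart) had the lowest gaps. Of 7 sinusoidal endothelium markers 3 were higher, namely Stab2 (2.47), a scavenger receptor, Clec4g (2.37) and Oit3 (1.43), while Lyve1 was far higher in lung (means 5.93 in liver and 10.89 in lung). Of 7 stellate cell markers Colec11 (2.48) and Reln (2.09) were higher and 5 were not called, with a median gap of -0.61. Des (-4.43) and Rgs5 (-2.22) had the lowest gaps, both against heart. None of 5 cholangiocyte markers was called by limma (0 also with an unadjusted p under 0.05 at the same 2-fold threshold). Krt7 and Krt19 were dim in liver (5.90 to 6.12 and 6.58 to 6.85) and bright in lung (means 11.16 and 10.67). Krt7 was lower in each comparison (largest adjusted p = 0.026 by limma) but missed 2-fold against heart (-0.67). The probe sets of Sox9 (5.77 to 6.72 on all arrays) and Epcam (8.64 to 10.27) varied little and may not report the level of these genes. Markers of lung epithelium and cardiomyocytes stayed low in liver, which did not hold for every list of another organ. The pancreas list averaged 8.30, 8.57 and 8.21 in p53-/-, p66-/- and WT liver, against 7.05 to 8.32 elsewhere. For skeletal muscle the averages were 7.46, 6.43 and 7.52, against 6.36 to 9.73 elsewhere. The lung epithelium list averaged 7.16, 7.21 and 6.37 in p53-/-, p66-/- and WT liver, against 13.95 to 14.12 in lung, and the cardiomyocyte list 5.75, 5.95 and 5.71, against 13.79 to 14.05 in heart. The one pancreas marker called higher was Cela1, an elastase, at 10.08, 10.39 and 10.15 in p53-/-, p66-/- and WT liver (gap 3.2), with Prss2, Cpa1 and Ins2 not called.

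Genes lower in liver than in each other tissue were led by Sox4, a transcription factor of progenitor and immature cells. It read 4.84, 5.17 and 4.85 in p53-/-, p66-/- and WT liver, against 9.37 to 12.52 elsewhere (reverse gap -4.68, adjusted p = 1.4e-06). This is its brightest probe set, and with all its probe sets averaged the reverse gap of Sox4 was -1.45, while that of Adipoq stayed at -4.62. Averaging also moved Fabp4 to -2.31, Nebl to -2.52, Acss1 to -1.41 and Gsn to -2.49. Adipoq, the hormone of fat cells, read 5.69, 5.14 and 4.68 in p53-/-, p66-/- and WT liver, against 9.16 to 11.40 elsewhere (reverse gap -4.62), and Fabp4 8.12, 7.56 and 7.84, against 11.71 to 13.33 elsewhere (reverse gap -4.53). Cidea (-3.99) and Cox8b (-3.11), known from brown fat and, for Cox8b, heart, were low in liver too. Beside these, 1 of 4 measured adipocyte markers was called lower, Adipoq itself, and the list mean was 6.22, 6.10 and 5.93 in p53-/-, p66-/- and WT liver, against 7.34 to 8.36 elsewhere. The share of fat attached to heart, lung and thymus in these values was not tested.

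Further lower genes belonged to the cytoskeleton and the surface of mobile or contractile cells. Of 30 such genes 16 were lower and 0 higher, against 1.96% and 5.38% of all genes. Lgals1, galectin-1, read 7.20, 7.35 and 7.42 in p53-/-, p66-/- and WT liver, against 10.71 to 12.42 elsewhere (reverse gap -3.77), and S100a6, a calcium binding protein, had -3.48. Vim, the filament of mesenchymal cells, read 7.58, 7.85 and 7.78 in p53-/-, p66-/- and WT liver, against 9.88 to 11.97 elsewhere (-2.66, adjusted p = 5.8e-06), and Itga6, Anxa1 and Acta2 had -2.82, -2.35 and -2.37. Gsn, which severs actin (-3.53), Nebl of muscle Z-discs (-4.10), Tspan13 (-3.28) and F13a1, a macrophage transglutaminase (-3.24), completed this set. Of 31 genes of extracellular matrix 11 were lower, among them Mgp (-3.10), an inhibitor of calcification, and Col1a2 (-1.64), but Col18a1, the source of endostatin, was higher (11.69, 11.61 and 11.88 in p53-/-, p66-/- and WT liver, against 7.43 to 8.23 elsewhere, gap 3.81), as was Fn1, which hepatocytes release into plasma (1.44).

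Others were of energy use outside liver. Slc25a4, the muscle form of the mitochondrial ATP carrier, read 7.50, 7.44 and 7.74 in p53-/-, p66-/- and WT liver, against 10.51 to 14.11 elsewhere (reverse gap -3.35), and Acss1, which activates acetate in mitochondria, 5.17, 5.10 and 4.87, against 8.69 to 10.79 elsewhere (-3.97). Of 8 cardiomyocyte markers 4 were lower in liver than in lung and thymus as well, with Myl7 at a mean of 5.48 in liver, 13.22 in heart, 11.03 in lung and 8.57 in thymus (-3.09). None of 29 cell division genes was called by limma (0 also with an unadjusted p under 0.05 at the same 2-fold threshold). Thymus was the tissue that stood apart (list means 6.27 to 6.51 in liver, 6.69 to 7.13 in heart and lung and 7.64 to 10.19 in thymus).

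Hepatocyte transcripts were also present in RNA labelled lung. The 9 hepatocyte markers averaged 13.83, 13.85 and 13.99 on the p53-/-, p66-/- and WT liver arrays, and 7.39, 9.78 and 10.68 on the p53-/-, p66-/- and WT lung arrays. On the p53-/-, p66-/- and WT arrays they averaged 6.96, 7.56 and 8.06 in heart and 6.53, 7.55 and 7.61 in thymus. The order WT above p66-/- above p53-/- thus held for this list in heart and thymus too, over a smaller span. For the 218 genes with a gap of 4 or more, the signal above the lowest of the 9 other arrays was expressed as a percent of the liver signal on the linear scale. Its median was 0.369% on the p53-/-, 0.965% on the p66-/- and 1.94% on the WT lung array. On the p53-/-, p66-/- and WT arrays it was 0.52%, 0.603% and 0.442% in heart and 0.109%, 0.0783% and 0.432% in thymus. By this measure neither tissue followed the order seen in lung. The p53-/- lung array thus lay within the range of heart and thymus. Of these 218 genes, 23 were higher on the p53-/- lung array than on every heart and thymus array, 97 on the p66-/- lung array and 150 on the WT lung array. These are 10.6%, 44.5% and 68.8% of the 218, against 15.3%, 18.1% and 19.2% of all genes. The gap is also taken against the lung mean, so genes steadily high in lung are left out of the 218. Over all 979 higher genes the shares were 18.7%, 31.1% and 41.3% on the p53-/-, p66-/- and WT lung arrays. The order WT above p66-/- above p53-/- held in lung for 165 of the 218 (75.7%), and for 3590 of all 18193 genes (19.7%). Over all 979 higher genes the lung mean lay 0 above the higher of the heart and thymus means in the median, with medians of -0.13, -0.03 and 0.11 on the p53-/-, p66-/- and WT lung arrays, and the order held for 425 of them (43.4%).

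**Figure D5:**
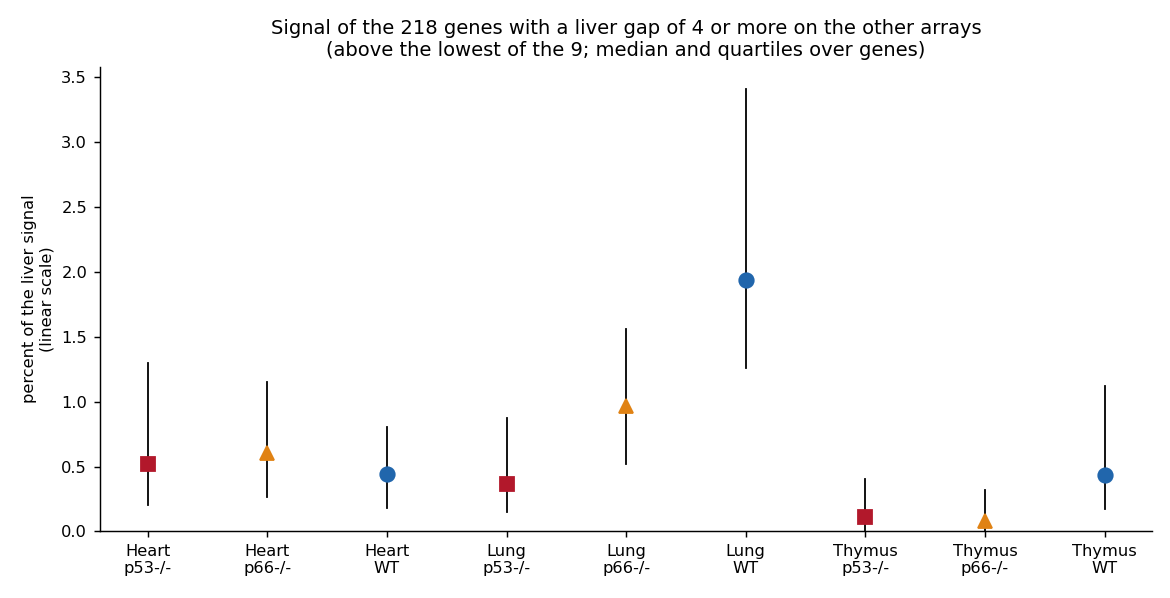
For the 218 genes with a liver gap of 4 or more, the signal on each of the 9 heart, lung and thymus arrays above the lowest of the 9, as a percent of the liver signal on the linear scale (point, median over genes; line, quartiles). The WT lung array stands highest at 1.94% and the p66-/- lung array follows at 0.965%, while the p53-/- lung array (0.369%) lies below the 3 heart arrays (0.442% to 0.603%).

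These signals moved with other features of the lung arrays. The difference between the 3-prime and 5-prime probe sets of Gapdh was 0.66 on the p53-/- lung array, 1.32 on the p66-/- lung array and 2.29 on the WT lung array, and 0.82 to 0.95 on the liver arrays. The 18S signal was 9.79, 5.94 and 5.52 on the p53-/-, p66-/- and WT lung arrays. The part of these features, and of liver tissue or its RNA reaching the lung samples, was not tested. The marker gaps depended on which lung arrays were kept. Without the p53-/- lung array the gap of Alb was 2.03, of Ttr 2.28, of Apoa1 3.92 and of Fga 3.51. With the WT and p66-/- lung arrays left out, a setting chosen after seeing the data in which the p53-/- array stands alone for lung and is assumed to vary like the other groups, the gap of Alb was 5.96, of Ttr 6.34, of Apoa1 6.49 and of Fga 7.40, while 973 genes were called higher, 918 of them shared with the 979, and 315 lower.

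Some genes high in both liver and lung were about as bright on the p53-/- lung array as on the other lung arrays. Of the 979 higher genes, 99 (10.1%) were also called higher in lung than in heart and thymus, a call made for 6.16% of all genes. The largest lung excess was that of Hc, complement C5, with 12.52, 12.26 and 13.02 in p53-/-, p66-/- and WT liver and 11.15, 11.46 and 11.58 in p53-/-, p66-/- and WT lung, against 6.05 to 7.31 in heart and thymus. Aox3, an aldehyde oxidase (9.85, 9.68 and 10.01 in p53-/-, p66-/- and WT lung), Akr1c14, a steroid reductase (9.34, 10.30 and 9.70), Pon1, the paraoxonase of high density lipoprotein (10.95, 10.36 and 10.78), and Gsta3, a glutathione transferase (9.07, 9.53 and 8.80), showed the same even lung signal. Others of the 99 did not, such as Fabp1 (8.90, 10.73 and 11.12 in p53-/-, p66-/- and WT lung), Mug1 (4.71, 8.16 and 8.67) and Alb.

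Promoters differed in composition along the liver gap. Of the 979 higher genes 791 had a RefSeq promoter of 300 bases, as did 174 of the 218 with a gap of 4 or more, 283 of the 357 lower genes and 14368 of all genes measured. The median number of CpG dinucleotides was 4 in the 174 and 11 in the 791, against 17 in all promoters and 19 in those of lower genes. The median G and C content was 48.2%, 56.3%, 58.7% and 62.0% in the same order. Elovl2, with 56 CpG, and Alb, with 3, show that a large gap was found with either kind. The letters TATAAA were found in 24.1% of the 174 and 13.3% of the 791, against 9.86% of all promoters. The HNF1 letters GTTAATNAT were in 5.17% of the 174 and 3.54% of the 791, against 0.619% of all, and the HNF4 letters CAAAGTCCA in 3.45% and 1.64%, against 0.466%. For FOXA, TGTTTAC was in 5.75% and 3.67%, against 2.80%, and TGTTTGC in 12.6% and 6.70%, against 4.09%. The C/EBP letters TTGCGCAA were in 0 of the 174 and in 1 of the 791, against 33 of all. Among the 283 lower genes HNF1 letters were in 1, HNF4 letters in 0 and TATAAA in 9.89%. All motifs were searched on both strands, matches of different motifs were counted separately even where they share bases, and a match is a description of letters only.

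Higher genes also lay side by side on the chromosomes. Of 974 placed in RefSeq order among the genes measured, 251 (25.8%) had a neighbour that was higher too, against 10.2% of all 18029 placed genes. The longest row, on chromosome 5, held 7 genes, Ugt2b34, Ugt2b1, Ugt2b35, Ugt2b36, Ugt2b5, Ugt2b37 and Ugt2a3, with gaps of 3.07 to 7.03. Rows of 4 to 6 included the retinol dehydrogenase genes of chromosome 10 (Rdh9, Rdh16, Rdh16f2, Rdh7, Sdr9c7, Hsd17b6), Serpina genes of chromosome 12, Akr1c genes of chromosome 13 and Cyp2c genes of chromosome 19. The apolipoprotein genes Apoa1, Apoc3, Apoa4 and Apoa5 of chromosome 9 had gaps of 4.87 to 6.20, and Apoc2, Apoc4, Apoc1 and Apoe of chromosome 7 gaps of 2.98 to 5.36. Ahsg, Fetub, Hrg and Kng1, plasma proteins of the cystatin superfamily on chromosome 16, had gaps of 4.64 to 5.81. Neighbours in these rows are mostly gene copies and are not independent. Of 356 lower genes placed, 18 (5.06%) had a lower neighbour, against 3.88% of all.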

How the data were processed

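Total RNA of liver, heart, lung and thymus was hybridised to Affymetrix mouse expression arrays. The authors deposited a table of log2 values, made with RMA in Partek 6.5. RMA corrects background, normalizes by quantiles and summarizes probes, so levels are relative within a common distribution. Of 45101 probe sets, 64 were controls, 34945 carried 1 gene symbol, 932 several and 9160 none in the platform table used here. Each of 18193 genes was read from the brightest of its probe sets, by the average of the 12 arrays.

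limma 3.58.1 (R 4.3.3) was fitted to all 12 arrays with 1 mean per tissue (8 residual degrees of freedom), and p-values were adjusted by Benjamini-Hochberg over all genes per comparison. On simulated data with 18193 genes it called 42 of 50 genes raised by 1.5 on the log2 scale, 49 of 50 raised by 2.5 and 1 of 17993 unchanged. There the unchanged genes had no difference between tissues, and a gene had the same independent normal spread on every array. The rate of false calls on real arrays, some of which stand apart, is therefore not given by it. The number of arrays limits the precision.

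Named genes were the 4 markers, the 15 largest gaps in each direction, up to 4 highest and 2 lowest members of each liver list, isoform pairs, the 6 largest ranges in liver and excesses in lung, and genes that checks of cell types turn on. Others were chosen after their values were seen. The members, lists and motifs were chosen with earlier results of these data known. Alternatives were other folds, scalings, probe set choices, fits and left-out arrays or tissues.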

Additional observations from a re-analysis of the deposited data

How the results depend on the processing

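Leaving out each array in turn gave 920 to 990 genes higher in liver and 325 to 381 lower, and 979 to 1336 genes higher in lung than in heart and thymus. With genotype as a replicate block the counts were 985 and 359 in liver and 1144 in lung; correlations of same-genotype deviations between tissues ran from -0.253 to 0.479 and were 0.101 to 0.348 between liver and heart, so a pairing of all tissues was not assumed. At 4-fold 519 genes were higher and 79 lower, and with no fold threshold 1362 and 739. The count of lower genes was 221 when the probe sets of a gene were averaged (cause not tested), 786 without thymus and 781 without heart, which asks for fewer comparisons, and 1124 on the 6 arrays of low 18S signal, a setting chosen after seeing the data. The higher count was 1262 without lung, 1057 with arrays centred on their medians, which moved the median liver minus lung difference over all genes to 0.19, against 0.04, and 917 with probe sets averaged. Over the 979 higher genes the lung mean lay 0 above the higher of the heart and thymus means in the median, 0.13 in the mean and 0.59 in the median of the 50 largest gaps. Of 612 repeats of the gaps of the 4 markers and the 15 leading genes in each direction under other scalings, probe sets and left-out arrays 608 kept their call, the 4 others being those of Ttr, and 0 reversed. The 15 leading genes in each direction were picked by their gaps in these same arrays, so that their calls held was largely given by that choice. Of 432 repeats of list medians 46 moved by more than the spread between genotypes and 0 reversed.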

Other observations

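Of the 979 genes higher in liver, 685 stood on none of the lists. Those given here were chosen after their values were seen. Sult2a8, a sulfotransferase of bile acids, read 12.67, 12.19 and 12.53 in p53-/-, p66-/- and WT liver and 4.83 to 7.08 elsewhere (gap 6.27). Dpys, which breaks down pyrimidines (6.27), Rgn, a calcium binding lactonase (6.23), and H2-Q10, a secreted class I molecule made by liver (6.07), had gaps as large as those of the plasma proteins. Both subunits of the asialoglycoprotein receptor were higher, Asgr1 with a gap of 5.48 and Asgr2 with one of 5.05, as were the gap junction gene Gjb1 (5.19), the glycerol channel Aqp9 (4.87), the glucagon receptor Gcgr (3.95) and the deiodinase Dio1 (3.93).

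Slc10a2, the bile acid transporter of the ileum, read 7.65, 8.20 and 7.91 in p53-/-, p66-/- and WT liver and 3.59 to 3.96 elsewhere (gap 4.10, adjusted p = 1.1e-09 by limma), and Fabp2, the intestinal fatty acid binding protein, 9.40, 9.59 and 9.32, against 4.40 to 4.96 elsewhere (gap 4.69). On the lower side Ucp1, the heat-producing carrier of brown fat, read 6.52, 6.49 and 6.72 in p53-/-, p66-/- and WT liver, against 7.86 to 12.21 elsewhere (reverse gap -2.56, adjusted p = 0.0018).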
